A study of Rattus norvegicus with 6 samples.

Results

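Complement, coagulation and fibrinolysis are linked protease cascades of plasma and tissue. In complement, C1q or mannose-binding lectins recognise a surface, proteases activate C4, C2 and C3, and the terminal components form a pore, while small fragments of C3 and C5 act on receptors of myeloid cells. Coagulation runs from tissue factor to thrombin and fibrin, and fibrinolysis removes fibrin with plasmin, which the activators tPA and uPA make from plasminogen. In injured peripheral nerve these systems are known for opsonising myelin debris, for fibrin deposits that delay Schwann cell maturation, and for extracellular proteolysis during axon growth.

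The 42 genes described here were taken by symbol from the 29884 genes of the deposited count table. No filter on their measured values was used, but earlier results of these data were known when they were listed. Their symbols found 41 rows directly, and Cd59 was matched to Cd59b, for which the RefSeq table lists Cd59 as a synonym. Messenger RNA was sequenced in 6 libraries of sciatic nerve from wild type rats with chronic constriction injury (CCI), a model of neuropathic pain in which ligatures compress the nerve. In 3 libraries the injured nerve had received a PLLA-PCL-RVC conduit, a nerve wrap that the study describes as piezoelectric and loaded with ropivacaine, a local anaesthetic; in the other 3 the injured nerve was untreated. All 6 nerves were thus injured. The labels used here give no strain, sex, age or time after injury, and no empty conduit or uninjured nerve was analysed here. They do not say whether a library is 1 animal, and p-values here reflect differences between libraries, some of which could be technical.

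Library totals ran from 38401951 to 42225086 counts. The labels number 5 batches, none of which holds both groups, so batch and treatment cannot be told apart and no within-batch value exists. The labelled tissue showed Schwann cell RNA: Mbp, myelin basic protein, was at 22257 to 28534 CPM in conduit libraries and 2124 to 3377 CPM in untreated libraries. CPM here is a count scaled by library size, with the size adjusted by TMM (trimmed mean of M-values). Untreated replicate 1 stood apart by skeletal muscle transcripts (Acta1, Ckm and others), which summed to 4.58 to 9.85 CPM in conduit libraries, to 10915 CPM in this untreated library and to 78.8 and 12.3 CPM in replicates 2 and 3. Conduit replicate 3 stood apart by adipocyte transcripts (Fabp4 and Adipoq the most abundant), with 1419 CPM there, 296 and 363 CPM in conduit replicates 1 and 2 and 333 to 734 CPM in untreated libraries.

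Promoter sequences are shown for 4 members that differed strongly between the groups: the receptors C3ar1, C5ar2 and Plaur, and Plau, the ligand of Plaur. They are RefSeq sequences of the GRCr8 build, each with 250 bases before and 50 after the gene's start, written 5′ to 3′ on the gene's strand: C3ar1 at chr4:157756481-157756780 (minus strand), C5ar2 at chr1:86070504-86070803 (minus), Plaur at chr1:89181113-89181412 (plus) and Plau at chr15:3511938-3512237 (minus). Capitals mark matches on either strand to TGANTCA, the core of AP-1 sites, and to GAGGAAG, a PU.1 type element; the matches do not overlap each other.
C3ar1: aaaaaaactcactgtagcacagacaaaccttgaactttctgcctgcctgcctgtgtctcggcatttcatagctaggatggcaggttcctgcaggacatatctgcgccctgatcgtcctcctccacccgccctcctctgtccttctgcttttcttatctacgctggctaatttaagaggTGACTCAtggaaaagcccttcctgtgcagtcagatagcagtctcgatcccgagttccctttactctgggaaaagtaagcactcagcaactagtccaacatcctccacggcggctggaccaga
C5ar2: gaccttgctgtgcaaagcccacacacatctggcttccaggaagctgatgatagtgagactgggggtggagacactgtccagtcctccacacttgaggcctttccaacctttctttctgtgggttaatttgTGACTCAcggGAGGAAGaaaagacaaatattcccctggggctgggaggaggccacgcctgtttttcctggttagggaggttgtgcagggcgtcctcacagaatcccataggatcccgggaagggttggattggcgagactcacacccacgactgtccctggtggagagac
Plaur: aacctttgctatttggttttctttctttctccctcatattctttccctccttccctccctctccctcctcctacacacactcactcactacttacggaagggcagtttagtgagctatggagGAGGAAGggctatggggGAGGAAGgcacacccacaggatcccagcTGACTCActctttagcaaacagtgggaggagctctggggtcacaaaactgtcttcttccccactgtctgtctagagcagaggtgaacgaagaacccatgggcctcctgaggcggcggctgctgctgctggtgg
Plau: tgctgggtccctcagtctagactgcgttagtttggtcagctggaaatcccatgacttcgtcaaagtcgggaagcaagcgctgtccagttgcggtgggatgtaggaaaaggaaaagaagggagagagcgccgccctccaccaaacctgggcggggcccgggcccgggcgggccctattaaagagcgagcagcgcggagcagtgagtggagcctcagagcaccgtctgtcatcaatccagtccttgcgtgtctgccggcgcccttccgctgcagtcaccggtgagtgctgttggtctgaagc
The table held promoters of 28 members, 17 of them genes that changed. TGANTCA occurred in 8 of those 17 (Anxa2, C3ar1, C5ar2, Cfp, F2r, F5, Plaur and Procr), in Cd46 and Tfpi2, which did not pass, and in 7.33% of all 33469 promoters of the same length. In Plaur the match began 83 bases before the start, in C3ar1 72 bases and in C5ar2 120 bases before it. GAGGAAG occurred in 4 of the 17 (C5ar2, F13a1, Plaur and Procr), with 2 copies each in Plaur and Procr, in Tfpi, which did not pass, and in 12.4% of all promoters. The Plau window held neither. A match is a run of letters and was not examined as a binding site.

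Of the 42 members, 40 passed the filter on low counts and 37 had at least 10 counts in every library. In conduit nerves 21 of the 40 fell and 2 rose (edgeR quasi-likelihood test, Benjamini-Hochberg adjusted over all 15464 genes tested), and 20 of these 23 differed at least 2-fold. That is 57.5% of the members tested, beside 50.2% called among all genes, so the share called was near that of the whole table. By direction, 52.5% of the members tested fell, beside 26.2% of all genes, and 5.00% rose, beside 24.0% of all genes. The median log2 fold change (conduit minus untreated) was -1.05 for the members tested and -0.04 for all genes tested. The libraries of the 2 groups did not overlap in 25 members (62.5%), beside 61.7% of all genes. Cfi and F10 passed the filter through the untreated group alone, where they are higher, so their difference is partly a condition of being tested. Scaling by library totals moved the median of all genes by -0.39 on the log2 scale, with 2291 genes higher and 6554 lower against 3711 and 4049 with TMM; with it 25 members fell and 0 rose.

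**Figure D1:**
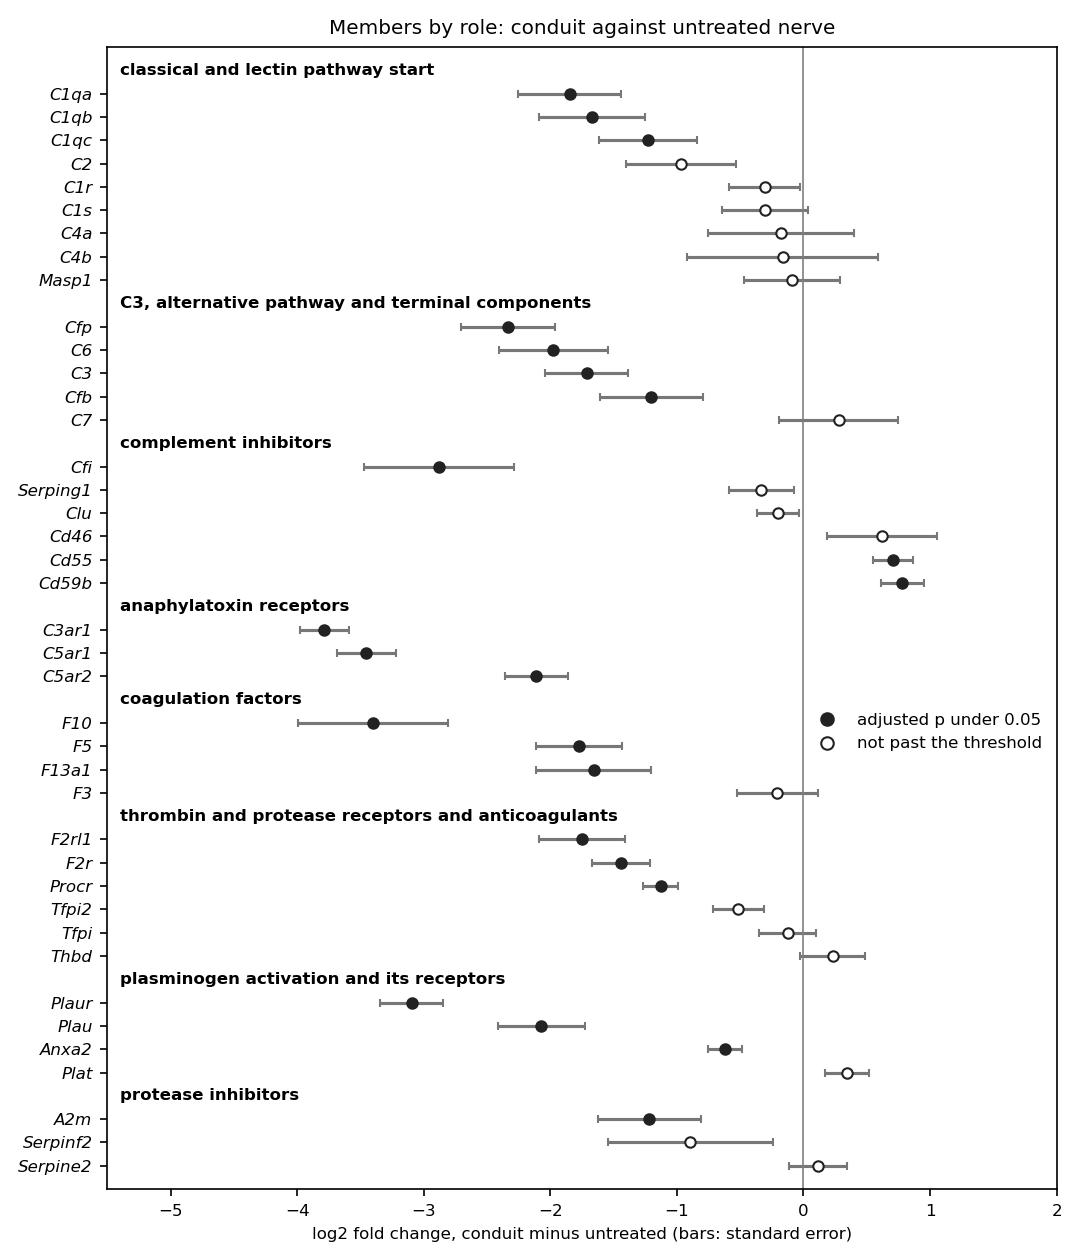
Log2 fold change (conduit minus untreated, horizontal axis) of the 40 members tested, grouped by role down the page; points are edgeR estimates, bars their standard errors, and filled points passed an adjusted p of 0.05. The anaphylatoxin receptors and Plaur lie between -2.11 and -3.79, whereas C4a, C4b and C1r lie within 0.31 of zero and Cd55 and Cd59b lie at 0.71 and 0.78.

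The receptors for the complement fragments C3a and C5a all fell, and C3ar1 and C5ar1 had the lowest log2 fold changes of the 40 members tested. C3ar1, the C3a receptor of myeloid cells, was at 2.91, 4.07 and 4.58 CPM in conduit libraries, against 55.8, 54.4 and 49.5 CPM in untreated libraries. Every conduit library was thus below every untreated one (log2 fold change -3.79 ± 0.19 SE, 13.8-fold lower, adjusted p = 6.97e-05). The highest library was 1.57 times the lowest in the conduit group and 1.13 times in the untreated group. All 10 macrophage markers (Lyz2 and Mrc1 the most abundant) fell, and their sum was 365 to 619 CPM in conduit and 2962 to 3390 CPM in untreated libraries; none was at 0. All 7 Schwann cell markers, Mbp among them, rose. In bulk nerve, fewer cells of a type and less RNA per cell cannot be told apart, and the part of cell numbers in the members' fall was not tested. C5ar1, the main signalling receptor for C5a, was at 4.54, 6.25 and 7.86 CPM in conduit libraries, against 77.6, 68.4 and 58.3 CPM in untreated libraries (-3.45 ± 0.23 SE, adjusted p = 8.56e-05). C5ar2, the other C5a receptor and the neighbour of C5ar1 on chromosome 1 of GRCr8, fell less: 3.27, 6.30 and 5.21 CPM in conduit libraries, against 21.4, 20.03 and 22.4 CPM in untreated libraries (-2.11 ± 0.25 SE, adjusted p = 0.0005). The ratio of C5ar1 to C5ar2 per length (FPKM) was 1.204 ± 0.251 in conduit and 2.99 ± 0.508 in untreated libraries (SD, n = 3 each). This ratio was chosen after the values were seen. Its p was 0.1 (exact permutation test, two-sided), or 0.143 adjusted over 20 ratios. A p of 0.1 is the smallest that 3 against 3 libraries allow, so this test could not pass 0.05.

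The 3 chains of C1q, the recognition molecule of the classical pathway, fell together. C1qa was at 42.9, 63.5 and 86.0 CPM in conduit libraries, against 215, 124 and 353 CPM in untreated libraries (-1.85 ± 0.41 SE, adjusted p = 0.00776). C1qb was at 31.2, 59.6 and 73.3 CPM in conduit libraries, against 150.2, 104 and 269 CPM in untreated libraries (-1.67 ± 0.42 SE, adjusted p = 0.0133). C1qc was at 41.2, 72.9 and 95.3 CPM in conduit libraries, against 136, 108 and 246 CPM in untreated libraries (-1.23 ± 0.39 SE, adjusted p = 0.0324). The 3 genes are neighbours on chromosome 5 of GRCr8, and all were highest in conduit replicate 3 and untreated replicate 3 of their groups. The call of C1qc was lost without conduit replicate 1 (adjusted p = 0.0833), conduit replicate 2 (0.0800) or untreated replicate 3 (-0.80, 0.0920). Per length, C1qa was at 56.2 ± 20.3 FPKM in conduit and 261 ± 128 FPKM in untreated libraries (SD, n = 3 each).

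The proteases that follow C1q did not pass the test. C1r, the first protease of C1, was at 196, 329 and 354 CPM in conduit libraries, against 306, 297 and 485 CPM in untreated libraries (-0.31 ± 0.28 SE, adjusted p = 0.397). C1s, its substrate and partner, gave -0.30 ± 0.34 SE, and Masp1, a lectin pathway protease, -0.09 ± 0.38 SE. C2, C4a and C4b, whose products form the C3-cleaving enzyme, varied more between libraries of 1 group than between the groups. C4b was at 68.1, 122 and 503 CPM in conduit libraries, against 124, 214 and 438 CPM in untreated libraries (-0.16 ± 0.75 SE, adjusted p = 0.874). C4a was at 87.0, 120.4 and 331 CPM in conduit libraries, against 109, 161 and 339 CPM in untreated libraries (-0.18 ± 0.58 SE, adjusted p = 0.818). The 2 genes are close copies, so reads may have been split between them. C2 was at 45.3, 54.6 and 138 CPM in conduit libraries, against 129, 127 and 209 CPM in untreated libraries (-0.97 ± 0.43 SE, adjusted p = 0.101). Without conduit replicate 3 C2 passed as lower (-1.59, adjusted p = 0.00462), whereas C4a (-0.93, 0.159) and C4b (-1.40, 0.0823) did not. Of the 9 members of this step, 3 fell (33.3%) and 0 rose, beside 26.2% lower and 24.0% higher among all genes tested. The share that fell was thus near that of the whole table.

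**Figure D2:**
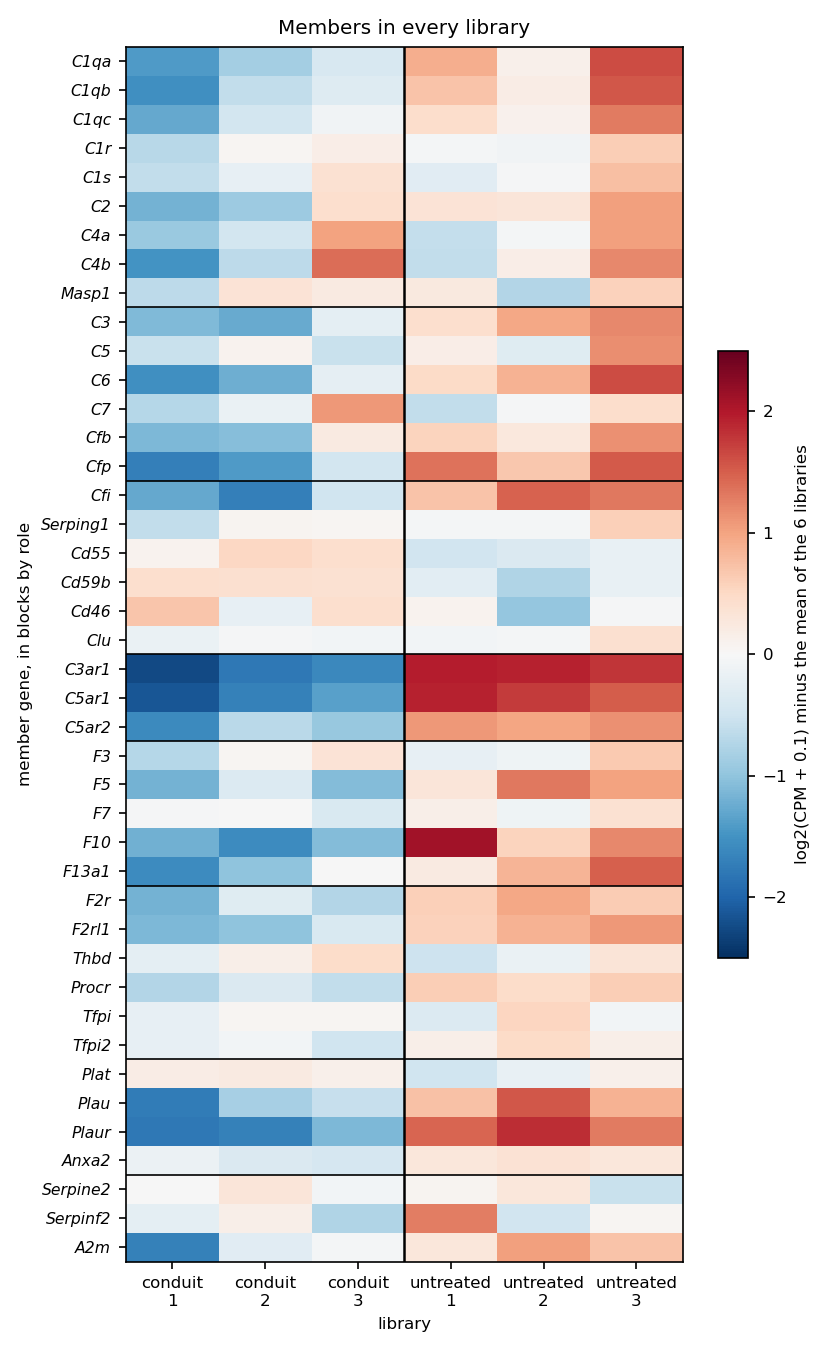
Log2(CPM + 0.1) of all 42 members (rows, in blocks by role) in each of the 6 libraries (columns), minus the row's mean; red is above and blue below it. C3ar1, C5ar1 and Plaur split cleanly by group, whereas C4a, C4b and C7 are high in conduit replicate 3 and untreated replicate 3.

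Of C3 and the genes of the alternative and terminal pathways, 4 of the 5 tested fell, beside 26.2% of all genes tested. Cfp, properdin, which stabilises the alternative C3 convertase and is made by myeloid cells, was at 6.24, 7.69 and 14.9 CPM in conduit libraries, against 53.1, 33.0 and 59.8 CPM in untreated libraries (-2.34 ± 0.37 SE, adjusted p = 0.00185). C6, a component of the membrane pore, was at 3.08, 3.82 and 7.78 CPM in conduit libraries, against 12.7, 16.7 and 28.4 CPM in untreated libraries (-1.98 ± 0.43 SE, adjusted p = 0.00741). C3, the central component, was low in nerve, at 5.36, 4.75 and 9.80 CPM in conduit libraries, against 15.6, 22.8 and 26.9 CPM in untreated libraries (-1.71 ± 0.33 SE, adjusted p = 0.00421). In all 3 genes the highest conduit library stayed below the lowest untreated one. Cfb, factor B, which supplies the catalytic part of the alternative convertase, was at 25.4, 26.3 and 64.7 CPM in conduit libraries, against 80.5, 65.8 and 122 CPM in untreated libraries (-1.20 ± 0.41 SE, adjusted p = 0.0410). Its groups nearly touched, and it did not pass when conduit replicate 1 or 2 or untreated replicate 1 or 3 was left out (adjusted p = 0.114, 0.121, 0.0611 and 0.122), while without both untreated replicate 1 and conduit replicate 3 it was at -1.83 (0.00626). C7, which follows C6 in the pore and lies near it on chromosome 2, did not move with it: 107, 157 and 372 CPM in conduit libraries, against 114, 172 and 237 CPM in untreated libraries (0.28 ± 0.47 SE, adjusted p = 0.648, and -0.36 without conduit replicate 3). C5, the source of C5a, had 2 counts in the conduit group and 14 in the untreated group and was not tested.

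C4a, C4b, C2, C7 and Cfb, chosen here after their values were seen, were all highest in replicate 3 of their group. C4b in conduit replicate 3 was 7.38 times its lowest conduit library, C4a 3.81 times and C7 3.48 times, beside a median over all genes tested of 1.28 times. Dpt and Pi16, fibroblast markers, were also highest in those libraries: Dpt was at 57.3, 82.5 and 234 CPM in conduit and 123, 75.5 and 254 CPM in untreated libraries, and Pi16 at 8.05, 17.7 and 62.2 CPM in conduit and 30.6, 27.5 and 57.4 CPM in untreated libraries. Adipoq, an adipocyte marker, was at 100.3, 110.1 and 412 CPM in conduit and 25.4, 64.0 and 160.0 CPM in untreated libraries. Dcn, the fibroblast marker decorin, did not share the pattern, with 1683, 3022 and 2979 CPM in conduit and 1803, 2562 and 2210 CPM in untreated libraries. Of the 40 members tested, 25 were highest in conduit replicate 3 among conduit libraries and 25 in untreated replicate 3 among untreated libraries (62.5% each), beside 37.5% and 30.02% of all genes tested. The part of these cell types in the members' levels was not tested.

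**Figure D3:**
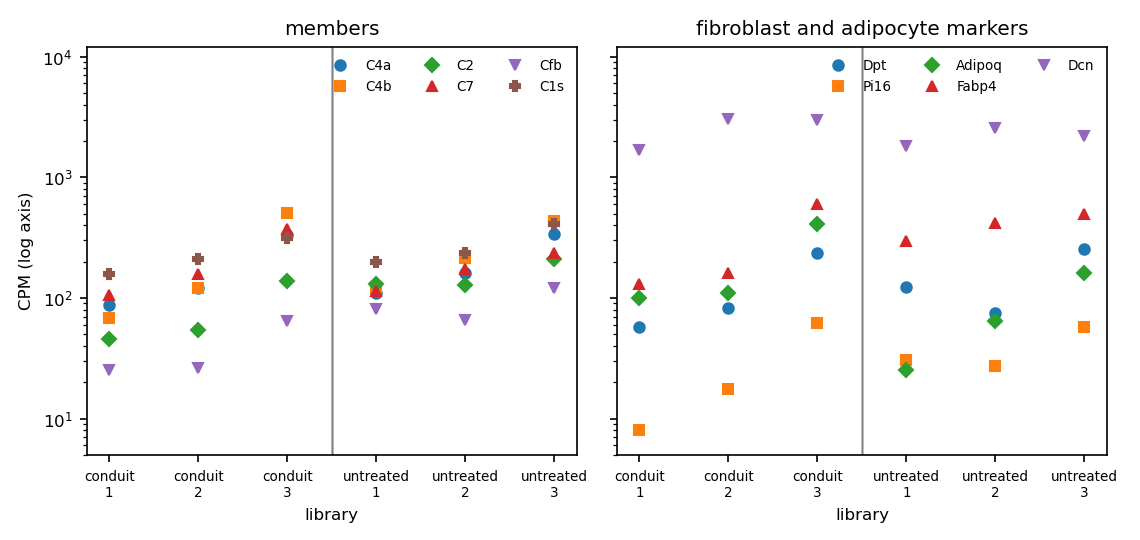
CPM (log axis) of 6 complement members (left) and 5 fibroblast or adipocyte markers (right) in each library. C4a, C4b, C2, C7, Cfb, C1s, Dpt, Pi16, Adipoq and Fabp4 are highest in replicate 3 of both groups, with C4b at 503 CPM in conduit and 438 CPM in untreated replicate 3.

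Of the 6 complement inhibitors, 2 on the cell surface rose and 1, which was scarce, fell. Among all genes tested 24.0% rose and 26.2% fell. Cd55, which dissociates C3 convertases on the cell surface, was at 24.9, 33.5 and 31.3 CPM in conduit libraries, against 16.6, 18.0 and 20.3 CPM in untreated libraries (0.71 ± 0.16 SE, adjusted p = 0.00777). Cd59b, the rat gene for the membrane inhibitor of the terminal pore, was at 272, 269.9 and 263 CPM in conduit libraries, against 169, 120.4 and 179 CPM in untreated libraries (0.78 ± 0.17 SE, adjusted p = 0.00771). These were the only 2 members that rose, and every conduit library was above every untreated one in both. Scaled by library totals, neither passed (0.32, adjusted p = 0.125, and 0.40, adjusted p = 0.0653), and without both untreated replicate 1 and conduit replicate 3 Cd55 did not pass (adjusted p = 0.0520). Cfi, factor I, which cleaves C3b and C4b, was scarce, with 0.110, 0.0565 and 0.262 CPM in conduit libraries against 0.736, 1.33 and 1.17 CPM in untreated libraries, or 16 counts against 151, and was tested only because of its untreated counts (-2.88 ± 0.59 SE, adjusted p = 0.00576). The abundant soluble inhibitors did not pass. Serping1, the C1 inhibitor, was at 239, 387 and 378 CPM in conduit libraries, against 353, 355 and 556 CPM in untreated libraries (-0.33 ± 0.26 SE). Clu, clusterin, which binds the forming pore, was at 316, 350.1 and 339 CPM in conduit libraries, against 339, 344 and 470.2 CPM in untreated libraries (-0.20 ± 0.17 SE). With library totals both passed as lower (-0.72, adjusted p = 0.0473, and -0.58, adjusted p = 0.0191), by about the shift of all genes. Cd46, in human a cofactor for factor I, was at 1.16 to 2.25 CPM in conduit and 0.646 to 1.45 CPM in untreated libraries and did not pass.

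**Figure D4:**
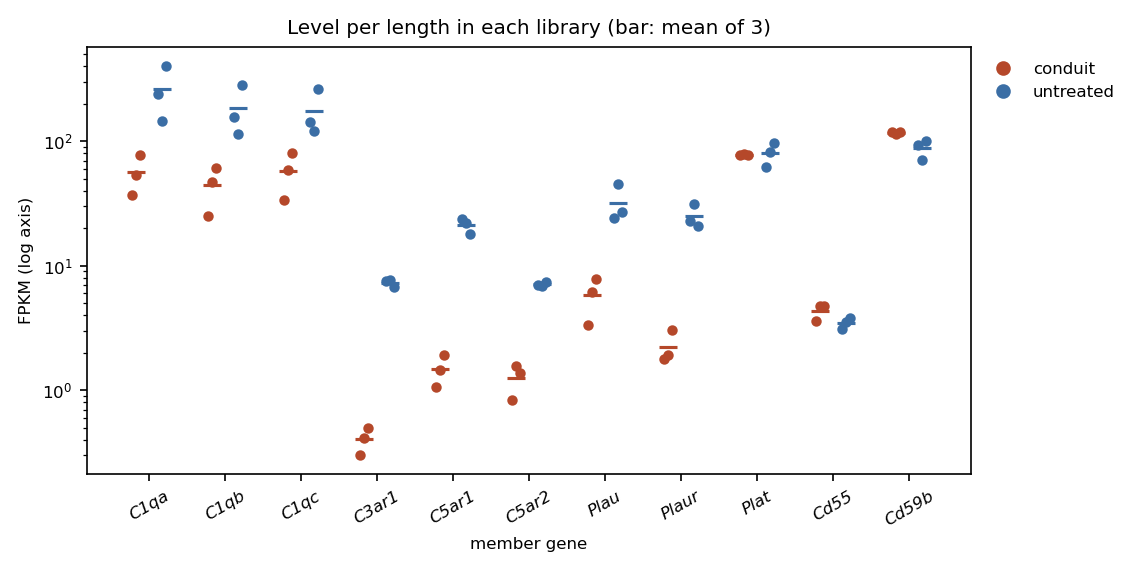
Level per length (FPKM, log axis) of 11 members in each library, conduit left of untreated for each gene; points are libraries and bars means of 3. The C1q genes, the anaphylatoxin receptors, Plau and Plaur are lower in every conduit library, while Plat and Cd55 overlap on this scale, which divides by library totals.

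Among the coagulation factors, 3 of the 4 tested fell, beside 26.2% of all genes tested, and F3 did not pass. F13a1, the transglutaminase subunit that cross-links fibrin and is also made by tissue macrophages, was at 21.7, 32.3 and 64.6 CPM in conduit libraries, against 75.9, 117 and 181 CPM in untreated libraries (-1.66 ± 0.45 SE, adjusted p = 0.0190). Its call was lost without conduit replicate 2 (adjusted p = 0.0669) or untreated replicate 3 (0.0550). F5, the cofactor of factor X in thrombin formation, was at 3.57, 6.47 and 3.82 CPM in conduit libraries, against 10.1, 20.6 and 16.6 CPM in untreated libraries (-1.77 ± 0.34 SE, adjusted p = 0.00421). F10, factor X itself, was near the detection limit in conduit nerve, with 14 counts in the conduit group and 189 in the untreated group (0.137, 0.0848 and 0.157 CPM against 2.25, 0.707 and 1.15 CPM; -3.40 ± 0.59 SE, adjusted p = 0.00277). F3, tissue factor, which starts coagulation, was at 33.8, 57.8 and 70.2 CPM in conduit libraries, against 48.1, 51.4 and 87.4 CPM in untreated libraries (-0.21 ± 0.32 SE, adjusted p = 0.616). The groups of F3 overlapped. F7, its partner, had 2 counts in the conduit group and 6 in the untreated group and was not tested.

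The thrombin and protease receptors fell, while the anticoagulants of vessel walls were mixed. F2r, the main thrombin receptor, was at 10.5, 19.2 and 14.3 CPM in conduit libraries, against 36.1, 46.3 and 37.2 CPM in untreated libraries (-1.44 ± 0.23 SE, adjusted p = 0.00194). F2rl1, a related receptor cleaved by trypsin-like proteases and studied in pain, was at 0.852, 0.933 and 1.49 CPM in conduit libraries, against 3.01, 3.70 and 4.35 CPM in untreated libraries (-1.75 ± 0.34 SE, adjusted p = 0.00430). Procr, the endothelial protein C receptor, was at 26.7, 34.5 and 28.6 CPM in conduit libraries, against 67.8, 60.7 and 68.0 CPM in untreated libraries, with narrow ranges in both groups (-1.13 ± 0.14 SE, adjusted p = 0.000565). Thbd, thrombomodulin, which turns thrombin towards protein C, was at 82.9, 109.8 and 136 CPM in conduit libraries, against 68.9, 87.4 and 124 CPM in untreated libraries (0.23 ± 0.26 SE, adjusted p = 0.486). Tfpi, the inhibitor of tissue factor, gave -0.12 ± 0.23 SE. Tfpi2, a matrix-bound relative, was at 5.03 to 6.78 CPM in conduit and 7.83 to 9.90 CPM in untreated libraries and did not pass (-0.51 ± 0.20 SE, adjusted p = 0.0713), although its groups did not overlap; with library totals it passed (adjusted p = 0.00747). Beside these, summed endothelial markers (Pecam1 and Cldn5 the most abundant) were 809 to 971 CPM in conduit and 913 to 1241 CPM in untreated libraries, with 2 of 8 lower and 1 higher.

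In the plasminogen system the uPA branch fell and tPA did not pass. Plaur, the uPA receptor, was at 2.58, 2.80 and 4.16 CPM in conduit libraries, against 25.6, 33.2 and 22.9 CPM in untreated libraries (-3.10 ± 0.25 SE, 8.55-fold lower, adjusted p = 0.000129). Plau, uPA, was at 8.99, 16.9 and 20.3 CPM in conduit libraries, against 50.5, 88.5 and 55.1 CPM in untreated libraries (-2.07 ± 0.34 SE, 4.20-fold lower, adjusted p = 0.00218). The highest conduit library of both genes was well below the lowest untreated one. Plat, tPA, was at 228, 236 and 220.2 CPM in conduit libraries, against 142, 176 and 219 CPM in untreated libraries (0.35 ± 0.17 SE, adjusted p = 0.138). Plat did not pass, and its value was -0.04 with library totals and 0.52 without untreated replicate 3 (adjusted p = 0.0345). Per length, Plau was at 5.81 ± 2.29 FPKM in conduit and 32.0 ± 11.3 FPKM in untreated libraries, and Plat at 77.9 ± 0.577 FPKM in conduit and 80.3 ± 17.6 FPKM in untreated libraries (SD, n = 3 each), so Plat was the more abundant activator in both groups. Anxa2, annexin A2, a surface site for plasminogen and tPA and the member with the highest level per length, was at 599, 517 and 501 CPM in conduit libraries, against 811, 861 and 814 CPM in untreated libraries (-0.62 ± 0.14 SE, adjusted p = 0.00771). Its call was lost without conduit replicate 2 (adjusted p = 0.0589), and without both untreated replicate 1 and conduit replicate 3 (0.0779).

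Of the protease inhibitors, A2m, alpha-2-macroglobulin, which traps proteases of many kinds, fell. It was at 37.7, 99.3 and 117 CPM in conduit libraries, against 146, 247 and 198 CPM in untreated libraries (-1.22 ± 0.40 SE, adjusted p = 0.0388), and it did not pass without conduit replicate 2 or untreated replicate 2 or 3 (adjusted p = 0.0718, 0.102 and 0.0766). Serpine2, protease nexin-1, a glial inhibitor of thrombin and the plasminogen activators, was at 404, 502 and 389.9 CPM in conduit libraries, against 427, 494 and 276 CPM in untreated libraries (0.11 ± 0.23 SE, adjusted p = 0.710). The groups of Serpine2 overlapped, at a high level in both. Serpinf2, the plasmin inhibitor, was at 0.183 to 0.424 CPM in conduit and 0.242 to 1.06 CPM in untreated libraries and did not pass (-0.89 ± 0.65 SE).

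Summed per length over each role, the anaphylatoxin receptors were at 3.15 ± 0.841 FPKM in conduit and 35.6 ± 3.09 FPKM in untreated libraries (SD, n = 3 each). The genes that start the classical and lectin pathways were at 415 ± 191 FPKM in conduit and 1045 ± 442 FPKM in untreated libraries, and the complement inhibitors at 422 ± 47.9 FPKM in conduit and 564 ± 119 FPKM in untreated libraries. The alternative and terminal genes (60.7 ± 39.5 FPKM in conduit, 131 ± 35.4 FPKM in untreated), the coagulation factors (32.8 ± 13.7 and 77.8 ± 28.5 FPKM, conduit and untreated), the thrombin-related genes (57.5 ± 9.32 and 111 ± 10.8 FPKM) and the plasminogen genes (407 ± 26.4 and 782 ± 63.8 FPKM, 81.2% of it Anxa2) were lower in every conduit library. For these 7 roles the two-sided exact permutation p was 0.1, the smallest that 3 against 3 libraries allow, and for the protease inhibitors (175 ± 21.3 FPKM in conduit, 234 ± 64.4 FPKM in untreated) it was 0.2. These p-values are for FPKM sums, which carry the shift of all genes. After TMM rescaling the log2 ratio was -3.15 for the anaphylatoxin receptors, -0.02 for the complement inhibitors and 0.0027 for the protease inhibitors. It was -0.97 for the classical and lectin start, -0.87 for the alternative and terminal genes and -0.88 for the coagulation factors. For the thrombin-related and plasminogen genes it was -0.57 and -0.56. Rescaled, the groups overlapped for the classical and lectin start, the alternative and terminal genes, the coagulation factors and both inhibitor sums. They stayed apart for the other roles.

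Most neutrophil markers moved the same way as those of macrophages. Of 6 neutrophil markers tested 4 fell (S100a9 and Csf3r the most abundant), with sums of 9.73 to 17.9 CPM in conduit and 51.6 to 106 CPM in untreated libraries. Cxcr2, 1 of these 4, had 1, 8 and 14 counts in conduit and 28, 87 and 39 in untreated libraries. It met the low-count filter through the untreated group, so its difference is partly a condition of being tested. Mmp8 and Mpo did not pass, and Mpo went the other way (0.70 ± 1.01 SE). It was at 2.75, 1.95 and 14.1 CPM in conduit libraries, against 0.563, 2.83 and 8.17 CPM in untreated libraries. Set over the summed macrophage markers of the same library, the members did not move alike. Lyz2 was the largest part of that sum, at 251, 267 and 344 CPM in conduit and 2061, 1219 and 1338 CPM in untreated libraries. Its log2 fold change was -2.42, and those of the 10 markers ran from -4.52 (Msr1) to -1.98 (Adgre1). C3ar1, C5ar1, C5ar2 and Plau were inside this range and C1qc was above it. A ratio to this sum is therefore not a level per macrophage. C3ar1 was at 0.801 ± 0.0618 CPM per 100 CPM of macrophage markers in conduit and 1.70 ± 0.119 in untreated libraries, and C5ar1 at 1.28 ± 0.0428 in conduit and 2.17 ± 0.229 in untreated libraries (SD, n = 3 each). C1qc was at 14.0 ± 2.40 in conduit and 5.23 ± 2.44 in untreated libraries, and C5ar2 at 1.03 ± 0.272 in conduit and 0.680 ± 0.0516 in untreated libraries. The exact permutation p of each of these 4 ratios was 0.1 (0.143 adjusted over 20 ratios), with no overlap of the groups. Plau per macrophage marker overlapped between the groups, at 3.11 ± 0.584 in conduit and 2.09 ± 0.790 in untreated libraries (p = 0.2, exact permutation test).

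**Figure D5:**
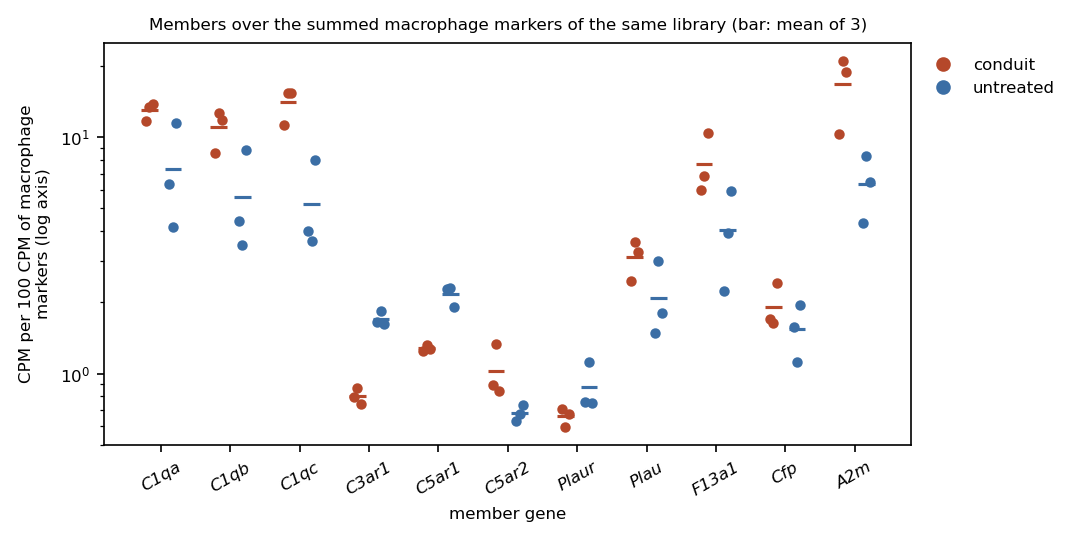
CPM of 11 members per 100 CPM of summed macrophage markers in the same library (log axis), conduit left of untreated; points are libraries and bars means of 3. C3ar1, C5ar1 and Plaur lie lower in all conduit libraries than in any untreated one, and C1qa, C1qc, C5ar2, F13a1 and A2m lie higher in all of them.

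Liver genes were near 0 in all 6 libraries, and the summed platelet markers did not overlap between the groups. Liver genes, the main source of circulating complement and clotting factors, summed to 0.825 to 3.06 CPM in conduit and 0.779 to 1.38 CPM in untreated libraries (Alb and Apoa1 the most abundant), 0 of the 3 tested passed, and Apob and Ahsg had no count in any library. Platelet and megakaryocyte markers summed to 19.2 to 35.6 CPM in conduit and 94.4 to 159 CPM in untreated libraries, most of it Pf4, the only 1 of 4 tested that fell; Itga2b came next and Gp1bb was at 0. Red blood cell markers (Hba-a1, Hbb) overlapped, at 908 to 3735 CPM in conduit and 1304 to 4443 CPM in untreated libraries, as did mast cell markers (Cma1, Cpa3), at 51.3 to 129 CPM in conduit and 50.6 to 87.9 CPM in untreated libraries, and smooth muscle and pericyte markers (Acta2, Tagln), at 1155 to 1575 CPM in conduit and 1187 to 1762 CPM in untreated libraries. Fibroblast markers, mostly Col1a1 and Col3a1, summed to 14817 to 29329 CPM in conduit and 8373 to 17216 CPM in untreated libraries, with 1 of 7 lower and 1 higher. Dividing cell markers (Mki67, Top2a) all fell, at 9.64 to 18.2 CPM in conduit and 193 to 249 CPM in untreated libraries.

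Of 63 further genes of these systems, 35 passed the filter, 14 of them fell and 3 rose, 48.6% called in all, beside 50.2% of all genes tested, so the share called was near the background. Another 28 were not tested, 6 of them without any count, among those not tested were the fibrinogen chains, with 1, 1 and 5 counts for Fga, Fgb and Fgg in the conduit group and 0, 0 and 16 in the untreated group. Of the complement genes in this list 9 of 15 tested fell and 1 rose, beside 26.2% lower and 24.0% higher among all genes. Among these 9, Vsig4 had 2 counts in the conduit group and 71 in the untreated group. It was tested only because of its untreated counts, so its difference is partly a condition of being tested. Fcnb, a ficolin of the lectin pathway made by myeloid cells, was at 0.385, 0.509 and 0.576 CPM in conduit libraries, against 20.7, 11.2 and 3.82 CPM in untreated libraries (-4.60 ± 0.64 SE, adjusted p = 0.00107). Itgam and Itgb2, the 2 chains of complement receptor 3, fell by 3.63 ± 0.37 SE and 3.45 ± 0.40 SE on the log2 scale (adjusted p = 0.000277 and 0.000495). Itgam also stands in the macrophage list. The gene that rose was Vtn, vitronectin, which inhibits pore formation, at 44.6, 33.5 and 42.0 CPM in conduit libraries, against 11.8, 16.2 and 26.3 CPM in untreated libraries (1.14 ± 0.29 SE, adjusted p = 0.0133, and 0.0577 with library totals). Of 10 coagulation genes tested 1 fell, F2rl2, and 1 rose, Vkorc1, which recycles vitamin K (0.89 ± 0.21 SE, adjusted p = 0.0107, and 0.0707 with library totals or 0.0620 without both untreated replicate 1 and conduit replicate 3). F2rl2 had 8, 31 and 3 counts in conduit libraries and 31, 191 and 117 in untreated libraries, and it too met the filter through the untreated group. Of 10 fibrinolysis genes 4 fell and 1 rose. The gene that rose, named after its values were seen, was Plg, plasminogen, at a very low level, with 1.21, 1.498 and 1.26 CPM in conduit libraries against 0.281, 0.202 and 0.460 CPM in untreated libraries (2.07 ± 0.43 SE, adjusted p = 0.00577).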

How the data were processed

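The authors deposited raw gene-level counts for 29884 genes, and FPKM values (fragments scaled by gene length and library total). The submitters' processing notes list fastp, HISAT2, HTSeq and DESeq2, and mRatBN7.2 as build, with no versions, roles or order. Every deposited FPKM checked (20504 genes) was the count over 1 gene length and the library total (tolerance 0.0001). Strand use is not given in the sources used here, so overlapping genes may share reads. Libraries held 38401951 to 42225086 counts, and 0 value columns were left unused.

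Counts were tested with edgeR 4.0.16 in R 4.3.3 (quasi-likelihood F test, two-sided, TMM scaling, filterByExpr with minimum count 10, group only) over 15464 genes, called at a Benjamini-Hochberg adjusted p under 0.05. SE is the log2 fold change over the square root of F. Single values were compared by exact permutation over 20 assignments of libraries. The other settings tried were DESeq2 1.42.0 (unfiltered), RLE scaling, scaling by library totals, no low-count filter, at least 5 CPM in 3 libraries, a replicate block, robust dispersions, and limma 3.58.1 on log2(FPKM + 1) or log2(FPKM + 0.1) with a minimum FPKM of 0.5 in 3 libraries, or without that minimum. Each library was also left out in turn and, added after seeing the data, 2 together. Scripts were tested on simulated data.

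Members, gene lists and tests were chosen with earlier results of these data known. Within each role, the 3 members with the smallest adjusted p and the 2 with the highest mean FPKM are given per library, with C3ar1 and Plaur; of further genes of these systems, up to 3 highest and 3 lowest called log2 fold changes where the higher group averaged 5 CPM or more; of each marker list, the 2 most abundant genes. Other genes named were chosen after their values were seen. Some genes that these rules name are not reported here.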

Additional observations from a re-analysis of the deposited data

How the results depend on the processing

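Of the 23 members called, 16 kept direction and call under each of the 17 alternatives that tested them, 7 lost the call under at least 1 (C1qc, Cfb, Cd55, Cd59b, F13a1, Anxa2 and A2m) and 0 reversed. With single libraries left out, 16 to 22 members fell and 2 to 3 rose; with DESeq2 22 fell and 2 rose. The members that rose numbered 0 with library totals, 1 with limma on log2(FPKM + 1), 0 with log2(FPKM + 0.1) and 0 without the FPKM filter, units that carry the shift of all genes, and 1 without both untreated replicate 1 and conduit replicate 3, where 23 fell. In that setting the genes that start the classical and lectin pathways had 6 called, including C4a (-1.24, adjusted p = 0.0432) and C4b (-1.75, adjusted p = 0.0224). The complement inhibitors had 1 called with log2(FPKM + 0.1), and the protease inhibitors 0 with unfiltered FPKM and 0 to 1 with single libraries left out. Of the further genes of these systems, 1 rose with library totals, 1 with log2(FPKM + 1), 0 with log2(FPKM + 0.1) and 1 without the filter; the cause was not tested. Cfi and F10, at -2.88 and -3.40, were at -0.60 and -0.86 on the log2(FPKM + 1) scale, unfiltered.

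The labels used here do not say whether replicate numbers pair the libraries. Deviations of same-numbered libraries from their group means correlated at 0.14, -0.03 and 0.06, and not every library correlated best with its own number. Such correlations cannot settle pairing, because transcripts particular to 1 library also enter the deviations. With a replicate block 22 members fell and 2 rose, C2 joining (-1.11, adjusted p = 0.00824), and 5 of the further genes rose.

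Each value that reversed belonged to a gene or sum that had not passed. With libraries left out (1, or untreated replicate 1 and conduit replicate 3 together), the log2 fold change ran from -0.78 to 0.065 for C1s, -1.24 to 0.41 for C4a, -1.75 to 0.45 for C4b, -0.38 to 0.21 for Masp1, -0.60 to 0.61 for C7, -0.57 to 0.12 for F3, -0.10 to 0.49 for Thbd, -0.32 to 0.17 for Tfpi, -0.092 to 0.30 for Serpine2 and -1.26 to 0.23 for Serpinf2. With library totals C7 was at -0.092, Thbd at -0.15, Plat at -0.044 and Serpine2 at -0.28. With limma on log2(FPKM + 1), filtered or not, they were at -0.24, -0.14, -0.019 and -0.24, and with log2(FPKM + 0.1) at -0.25, -0.14, -0.019 and -0.24, in the same order. The summed protease inhibitors were at 0.0027 after TMM rescaling, beside -0.38 on the FPKM scale. Depth limits C5, F7, Cfi and F10, which rest on 2 to 16 counts in the conduit group.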

Other observations

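Ratios of members within a library, chosen after the values were seen, give 4 further values per length (FPKM). Plau over Plat was 0.0745 ± 0.0292 in conduit and 0.405 ± 0.138 in untreated libraries (SD, n = 3 each; exact permutation test, p = 0.1, 0.143 adjusted over 20 ratios). Plaur over Plau, the receptor over its ligand, was 0.410 ± 0.116 in conduit and 0.808 ± 0.126 in untreated libraries (p = 0.1, exact permutation test). C1qc over C1qa was 1.01 ± 0.0932 in conduit and 0.689 ± 0.116 in untreated libraries (p = 0.1, exact permutation test), while C1qb over C1qa was 0.781 ± 0.0985 in conduit and 0.712 ± 0.0643 in untreated libraries (p = 0.4, exact permutation test). These chains assemble in fixed proportion in the C1q protein.

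Among the genes of these systems that did not pass the filter, 3 had more than 20 counts in 1 group and none in the other. Kng1, kininogen, the precursor of bradykinin, had 0 counts in every conduit library and 7, 23 and 13 counts in untreated libraries. Serpinb2, an inhibitor of uPA known from macrophages, had 0 counts in every conduit library and 8, 17 and 3 counts in untreated libraries. Klkb1, plasma kallikrein, which releases bradykinin, had 0, 78 and 0 counts in conduit libraries and 0 counts in every untreated library, so all of its counts came from conduit replicate 2. These genes were chosen after their values were seen and were not tested.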
